A study of Mus musculus with 2 samples.

Results

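The CatSper genes encode the subunits of the calcium channel of the sperm tail, and their messenger RNA levels are described here in 2 testis libraries. The 10 genes were taken by name: Catsper1, Catsper2, Catsper3 and Catsper4 as pore-forming subunits, and Catsperb, Catsperd, Catsperg1, Catsperg2, Catsperz and Efcab9 as auxiliary subunits. All 10 were found among the 43346 annotated genes of the deposited tables. The study sequenced polyA-selected RNA from the testis of 1 adult male mouse of the inbred strain C57BL/6J, aged 10 weeks, with no allele or treatment named in the labels. It holds 1 group of 2 technical libraries from this animal, replicate 2, which the labels date to 2015, and replicate 1. There is no second condition, so the libraries are compared with each other and the genes with one another, and an SD over n = 2 describes technical libraries only. Nothing here has a replicate across animals.

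CatSper is a calcium channel of the principal piece of the sperm flagellum, where it opens in alkaline cytoplasm and lets in the calcium that drives hyperactivated swimming. Catsper1 to Catsper4 each contribute a subunit to the ring around the pore. The auxiliary subunits beta, gamma and delta cover the pore with large extracellular domains, while Catsperz and the EF-hand calcium sensor Efcab9 bind on the cytoplasmic side. Male mice that lack any of the pore-forming subunits are infertile. The genes are transcribed in germ cells during and after meiosis, and the protein complex is assembled in spermatids.

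In voltage-gated calcium channels the pore carries an acidic residue at its selectivity filter. The coding stretch around it is shown because it tells the pore-forming genes from the auxiliary ones without reference to any level. In the lines that follow, capitals mark the in-frame codons for the pattern Thr-any-Asp-any-Trp within 75 bases of coding sequence. All coding sequences are GENCODE M21 transcript sequences on GRCm38 (mm10), written along the transcript, with positions counted from 1 at the first base of the start codon. The stretch covers coding bases 1570 to 1644 of Catsper1-201, 847 to 921 of Catsper2-201, 643 to 717 of Catsper3-201 and 673 to 747 of Catsper4-201.
Catsper1: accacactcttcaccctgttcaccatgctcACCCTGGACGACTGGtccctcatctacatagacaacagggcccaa
Catsper2: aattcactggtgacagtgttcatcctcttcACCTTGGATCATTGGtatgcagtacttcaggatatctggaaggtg
Catsper3: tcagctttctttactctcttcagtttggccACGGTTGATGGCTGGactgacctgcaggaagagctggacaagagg
Catsper4: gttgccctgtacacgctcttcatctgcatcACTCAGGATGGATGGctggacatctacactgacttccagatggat
Each of the 4 pore-forming genes held the pattern 1 time, starting at codon 534 in Catsper1, 293 in Catsper2, 225 in Catsper3 and 235 in Catsper4. None of the 6 auxiliary genes held it. Read in frame on the coding strand, the pattern occurred in 380 of 21562 genes with a complete coding sequence (1.76%). The pattern was chosen to describe these 4 genes, and a match of letters is not a measured property of the protein.

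Catsper1 also carries the run of histidine codons for which its cytoplasmic N-terminus is known. Bases 637 to 726 of the coding sequence of Catsper1-201 are shown with the histidine codons CAC and CAT in capitals, of which there are 16 in this stretch.
Catsper1 histidine stretch: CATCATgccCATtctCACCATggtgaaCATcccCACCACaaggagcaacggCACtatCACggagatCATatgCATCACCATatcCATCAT
Of its 686 codons, 63 encode histidine (9.18%), and 51 of them lie in the first 250. The median gene had 2.49% histidine codons, and 0.278% of genes reached the share of Catsper1. Among the other 9 CatSper genes the share lay between 1.77% in Catsper3 and 5.56% in Efcab9.

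All 10 genes were detected, that is, at 1 TPM or more in both libraries, against 54.6% of protein-coding genes (TPM is a level corrected for transcript length and library depth). By mean TPM they lay between percentiles 87.7 (Catsper4) and 98.6 (Catsperz) of protein-coding genes, with a median of 91.2. The median protein-coding gene had 4.6 TPM in replicate 2 and 1.89 TPM in replicate 1. The level of the 10 genes summed to 1771 TPM in replicate 2 and 1498 TPM in replicate 1. In whole testis, a low level from few cells and a low level per cell cannot be told apart.

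The tables hold 20675521 counts in replicate 2 and 31995370 in replicate 1 after the expected counts were rounded, so 3 counts correspond to 0.145 CPM in replicate 2 and 0.0938 CPM in replicate 1 (CPM is counts scaled to library size). Detection was looked at in 6 lists of 6 marker genes of testis cell types. No list of another tissue was included and 54.6% of protein-coding genes were detected, so this is a weak check of the label. All genes were detected in the lists for spermatocytes, round spermatids, elongating spermatids, Sertoli cells and Leydig cells, and 5 of 6 in the list for spermatogonia. The libraries were far apart: 56.4% of 18589 genes averaging at least 10 counts differed by at least 2-fold after TMM scaling. The ratio rose with GC content (Spearman 0.89 across tested genes, which are not independent replicates). Summed TPM of the elongating spermatid list was 50351.5 in replicate 2 and 9139 in replicate 1. Past 2-fold were 4 of 6 genes of this list and 4 of 6 of the Sertoli list, all higher in replicate 2. In the spermatocyte list 3 of 6 were past it, all lower. The round spermatid and Leydig lists each had 2 higher and 1 lower, and the spermatogonia list had 2 higher. Of all tested genes 32.5% were higher by 2-fold or more and 23.9% were lower. After GC correction 2, 2 and 0 of the elongating spermatid, Sertoli and spermatocyte genes were past 2-fold, against 22.1% of tested genes with a known GC content. The round spermatid and Leydig lists then each had 1 higher and 1 lower, and the spermatogonia list had 1 lower. In replicate 2 the sums were 5170 for spermatocytes, 1696 for round spermatids, 1295 for Sertoli cells, 2076 for Leydig cells and 117 for spermatogonia. In replicate 1 they were 5045, 2036, 896, 435 and 62.6 for the same lists. The part of these shifts in the CatSper values was not tested.

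Among the pore-forming genes, Catsper2 was the most abundant in both libraries. Catsper2 (ENSMUSG00000033486.10, chr2:121392631-121413792, minus strand, mm10) had 229.95 TPM in replicate 2 and 267.75 TPM in replicate 1, a mean of 248.85 ± 26.7 (SD, n = 2 technical libraries). Its reads numbered 6508 in replicate 2 and 11957 in replicate 1, the highest count among the 10 genes in each library. It exceeded Catsper1 2.02-fold in replicate 2 and 8.09-fold in replicate 1 on the TPM scale. It exceeded Catsper4 2.14-fold in replicate 2 and 10.5-fold in replicate 1. Its lead over the other pore-forming genes thus held in both libraries, but was larger in replicate 1. The gene overlaps the start of Pdia3 on the opposite strand, and the use of strand in counting is not stated. Any reads confined to the overlap cannot be told apart. Of the 50-base stretches of Catsper2-201, 0% occur in M21 transcripts of another gene on either strand.

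Catsper3 (ENSMUSG00000021499.8, chr13:55784568-55808998, plus strand) gave the closest pair of values on the TPM scale, 99.16 TPM in replicate 2 and 100.48 TPM in replicate 1 (mean 99.8 ± 0.93). These levels rest on 1559 counts in replicate 2 and 2490 in replicate 1. The log2 ratio of Catsper2 over Catsper3 was 1.21 in replicate 2 (exact 95% counting interval 1.13 to 1.29) and 1.41 in replicate 1 (1.35 to 1.48). These and later intervals are Clopper-Pearson intervals. They cover only the error of counting, and reads that carry no molecular identifier can stem from copies of 1 molecule.

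Catsper1 (ENSMUSG00000038498.3, chr19:5335741-5344280, plus strand) had 113.67 TPM in replicate 2 (2929 counts) and 33.09 TPM in replicate 1 (1345 counts). Catsper4 (ENSMUSG00000048003.8, chr4:134211970-134227383, minus strand) had 107.46 TPM in replicate 2 (2271 counts) and 25.42 TPM in replicate 1 (842 counts). Both were higher in replicate 2, and the SD of each was close to its mean, 73.4 ± 57.0 TPM for Catsper1 and 66.4 ± 58.01 TPM for Catsper4. Catsper1 exceeded Catsper4 in both libraries, by 0.08 on the log2 TPM scale in replicate 2 (0.00 to 0.16, so barely above 0) and by 0.38 in replicate 1 (0.26 to 0.51). Against Catsper3 their order turned: Catsper1 was above it by 0.20 log2 units in replicate 2 and below it in replicate 1, where the log2 ratio of Catsper1 over Catsper3 was -1.60. The log2 ratio of Catsper3 over Catsper4 was -0.12 in replicate 2 and 1.98 in replicate 1. The pore-forming genes thus spanned 2.32-fold in replicate 2 and 10.5-fold in replicate 1.

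**Figure D1:**
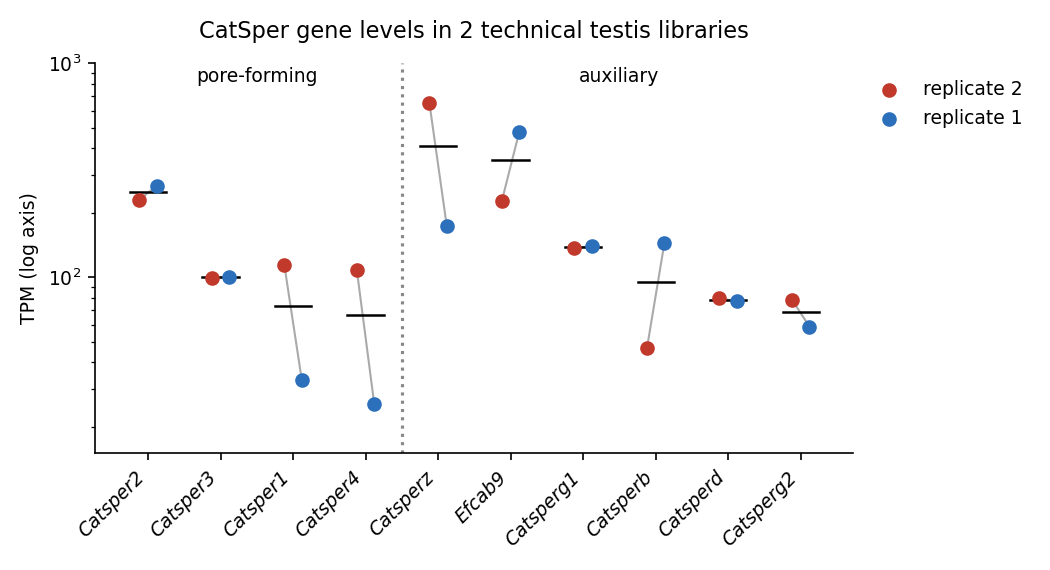
TPM of each CatSper gene (log axis) in replicate 2 (red) and replicate 1 (blue), with pore-forming genes on the left, auxiliary genes on the right and a bar at the mean of the 2 technical libraries. Points of Catsper3, Catsperg1 and Catsperd nearly coincide, while Catsper1, Catsper4 and Catsperz stand higher in replicate 2, and Catsperb and Efcab9 stand lower.

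Catsperz and Efcab9, the cytoplasmic partners that bind each other in the mouse channel, had the highest mean levels of the 10 genes. Catsperz (ENSMUSG00000050623.4, chr19:6922371-6925380, minus strand) had 651.05 TPM in replicate 2 (5366 counts) and 173.03 TPM in replicate 1 (2228 counts). Efcab9 (ENSMUSG00000044056.3, chr11:32522751-32532081, minus strand) had 227.74 TPM in replicate 2 (1791 counts) and 478.99 TPM in replicate 1 (5885 counts). Their order turned between the libraries, so that Catsperz exceeded Efcab9 2.86-fold in replicate 2 and Efcab9 exceeded Catsperz 2.77-fold in replicate 1. Neither counting interval of their log2 ratio came near 0 (1.44 to 1.59 in replicate 2, and -1.54 to -1.40 in replicate 1). The mean was 412 ± 338 TPM for Catsperz and 353 ± 178 TPM for Efcab9. The transcript of Catsperz overlaps Kcnk4 on the same strand in M21, so its reads are uncertain there. Both genes have short coding sequences, of 582 bases in Catsperz and 648 in Efcab9, and Efcab9 stood 9th of the 10 genes by count in replicate 2 but 3rd by TPM.

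Among the subunits with large extracellular domains, Catsperb (ENSMUSG00000047014.6, chr12:101404653-101626009, plus strand) varied most. Its level was 46.54 TPM in replicate 2 (2254 counts) and 143.79 TPM in replicate 1 (11007 counts), with a mean of 95.2 ± 68.8 TPM. It ranked last of the 10 genes in replicate 2 and 4th in replicate 1. Catsperd (ENSMUSG00000040828.9, chr17:56628143-56664456, plus strand) had 79.77 TPM in replicate 2 (2606 counts) and 77.08 TPM in replicate 1 (3976 counts), with a mean of 78.4 ± 1.90 TPM. It was above Catsperb in replicate 2 and below it in replicate 1. The log2 ratio of Catsperb over Catsperd was -0.78 in replicate 2 and 0.90 in replicate 1.

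The gamma subunit is encoded in the mouse by a pair of paralogs on chromosome 7. Catsperg1 (ENSMUSG00000049676.10, chr7:29181321-29214035, minus strand) had 137.17 TPM in replicate 2 and 139.58 TPM in replicate 1, a mean of 138 ± 1.70. Catsperg2 (ENSMUSG00000049123.9, chr7:29697219-29727032, minus strand) had 78.51 TPM in replicate 2 and 58.78 TPM in replicate 1, a mean of 68.6 ± 14.0. Their counts are estimates that divide shared reads. Catsperg1 had 5628 in replicate 2 and 6750 in replicate 1, and Catsperg2 had 4061 in replicate 2 and 4807 in replicate 1. The deposited posterior SD of the count was 18.19 reads in replicate 2 and 25.03 in replicate 1 for both genes, and 0 for the other 8 CatSper genes.

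Reads from identical stretches belong to neither paralog in particular, so a stretch where the copies have diverged is shown. Over 3273 aligned coding bases of Catsperg1-201 and Catsperg2-201, 96.8% were identical, and the longest run without a difference was 341 bases. The window below covers coding bases 2201 to 2300 of Catsperg1-201 and 2360 to 2459 of Catsperg2-201, both on chromosome 7, minus strand, with the 19 differing bases of 100 in capitals.
Catsperg1: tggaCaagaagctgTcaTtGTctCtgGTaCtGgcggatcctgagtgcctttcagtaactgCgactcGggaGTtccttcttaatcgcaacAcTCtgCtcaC
Catsperg2: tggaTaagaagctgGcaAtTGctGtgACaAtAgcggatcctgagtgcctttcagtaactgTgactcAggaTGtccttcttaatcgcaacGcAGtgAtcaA
Of all stretches of 50 bases in Catsperg1-212, the coding transcript of Catsperg1 with the highest mean TPM, 41.0% also occur in M21 transcripts of Catsperg2, and 21.3% of those of 100 bases do. For Catsperg2-201 against transcripts of Catsperg1 the shares were 41.0% for 50 bases and 20.7% for 100 bases. Both gene levels therefore carry an uncertainty in how reads were divided between them. The deposited posterior SD, 18.19 reads in replicate 2 and 25.03 in replicate 1, holds only for the transcripts in the deposited tables. Catsperg2 had 1 transcript there against 9 in M21, so this SD may not cover the whole uncertainty.

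The order of the 10 genes by mean TPM was Catsperz, Efcab9, Catsper2, Catsperg1, Catsper3, Catsperb, Catsperd, Catsper1, Catsperg2 and Catsper4. Of the 9 pairs of neighbours in this order, 7 had ranges over the libraries that overlapped. The exceptions were Catsper2 above Catsperg1 and Catsperg1 above Catsper3, which were separated in both libraries; on protein-coding transcripts alone Catsperg1 was below Catsper3 in both. In replicate 2 the order ran Catsperz, Catsper2, Efcab9, Catsperg1, Catsper1, Catsper4, Catsper3, Catsperd, Catsperg2 and Catsperb. In replicate 1 it ran Efcab9, Catsper2, Catsperz, Catsperb, Catsperg1, Catsper3, Catsperd, Catsperg2, Catsper1 and Catsper4. The same 3 genes thus led in both libraries, and Catsper2 was second in each.

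Pore-forming and auxiliary genes overlapped in level in both libraries. The pore-forming genes spanned 99.16 to 229.95 TPM with a median of 110.6 in replicate 2, where the auxiliary genes spanned 46.54 to 651.05 TPM with a median of 108. In replicate 1 the pore-forming genes spanned 25.42 to 267.75 TPM with a median of 66.8, and the auxiliary genes 58.78 to 478.99 TPM with a median of 142. The log2 ratio of the medians, pore-forming over auxiliary, was 0.03 in replicate 2 and -1.09 in replicate 1, with a mean of -0.53 and an SD of 0.79 (n = 2 technical libraries). The spread between the libraries exceeded this mean, and its sign differed between them. On expected counts, which are not scaled for length, the same log2 ratio was -0.36 in replicate 2 and -1.48 in replicate 1.

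Of the 24 pairs of a pore-forming and an auxiliary gene, 15 kept their direction in both libraries with intervals that left out 0. The pore-forming gene was higher in 6 of them, Catsper2 over Catsperb, Catsperd, Catsperg1 and Catsperg2, and Catsper3 over Catsperd and Catsperg2. The auxiliary gene was higher in 9, that is, Catsperz, Efcab9 and Catsperg1 over each of Catsper1, Catsper3 and Catsper4. The 3 directions with Catsperg1 turn in both libraries when protein-coding transcripts alone are counted. The log2 ratio of Catsper3 over Catsperg1 was then 1.01 in replicate 2 and 2.26 in replicate 1, that of Catsper1 was 1.21 in replicate 2 and 0.66 in replicate 1, and that of Catsper4 was 1.13 in replicate 2 and 0.28 in replicate 1. The widest gap was that of Catsper4 against Efcab9 in replicate 1, a log2 ratio of -4.24, against -1.08 in replicate 2. In 8 pairs the libraries gave opposite directions. These were Catsper1 and Catsper4 against each of Catsperb, Catsperd and Catsperg2, Catsper3 against Catsperb, and Catsper2 against Catsperz. Catsper4 over Catsperb had a log2 ratio of 1.21 (1.12 to 1.29) in replicate 2 and -2.50 (-2.60 to -2.40) in replicate 1. Catsper2 and Efcab9 were within counting error in replicate 2 (log2 ratio 0.01, interval -0.06 to 0.09), and Efcab9 was higher in replicate 1 (log2 ratio -0.84). Over all 45 pairs of CatSper genes, 29 kept their direction, 13 turned and 3 had an interval that included 0 in a library.

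**Figure D2:**
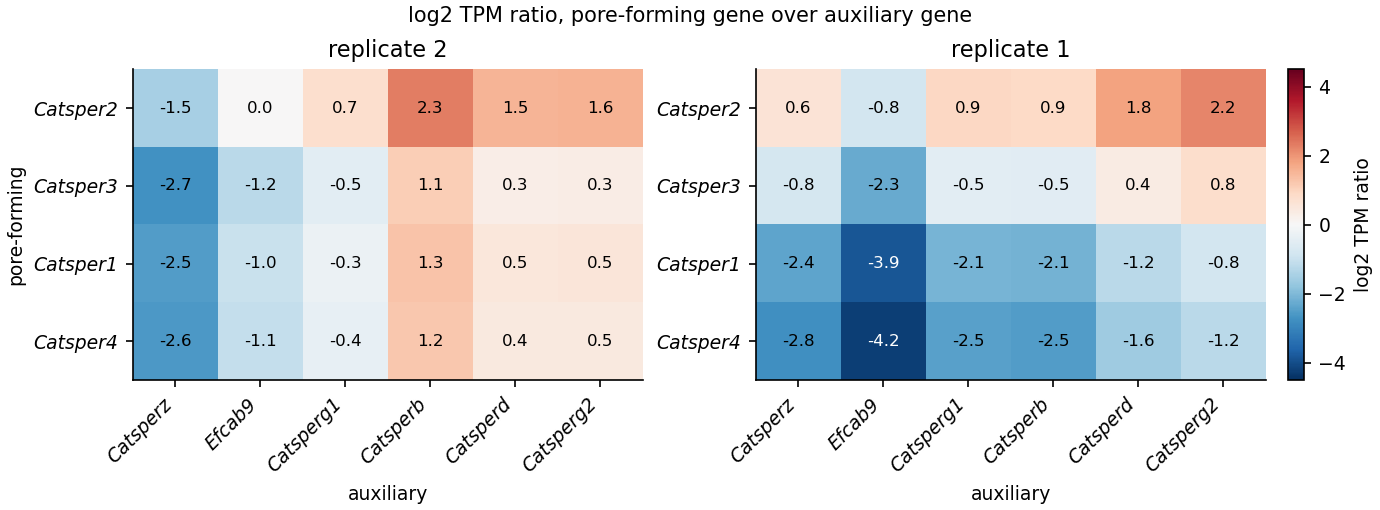
Log2 TPM ratio of each pore-forming gene (rows) over each auxiliary gene (columns) in replicate 2 (left) and replicate 1 (right), red where the pore-forming gene was higher and blue where it was lower. The Catsper2 row is mostly red in both libraries, while the cells of Catsper1 and Catsper4 against Catsperb, Catsperd and Catsperg2 are red in replicate 2 and blue in replicate 1.

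Between the libraries, 3 CatSper genes were higher in replicate 2 by 2-fold or more and 2 were lower, against 32.5% and 23.9% of all tested genes. The shares of 10 are close to those of the whole table and set the CatSper genes apart in neither direction. On TMM-scaled counts the log2 ratio of replicate 2 over replicate 1 was 1.78 (1.67 to 1.90) for Catsper4, 1.62 (1.55 to 1.69) for Catsperz and 1.47 (1.38 to 1.57) for Catsper1. It was -1.94 (-2.004 to -1.873) for Catsperb and -1.37 (-1.44 to -1.29) for Efcab9. The other 5 genes lay between -0.53 for Catsper2 and 0.11 for Catsperg2, with Catsper3 at -0.33, Catsperd at -0.26 and Catsperg1 at 0.09. The small positive ratios of Catsperg1 and Catsperg2 became -0.30 and -0.28 with upper-quartile scaling. The median over the 10 genes was -0.09, against 0.01 over all tested genes.

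The ratios followed the base composition of the transcripts. Catsperb, with the lowest GC content of the 10 genes at 37.2%, was the lowest in replicate 2 relative to replicate 1, and Efcab9 was next in both measures at 44.3%. The 3 genes past 2-fold in the other direction were the 3 of highest GC content, Catsper1 at 51.6%, Catsper4 at 52.1% and Catsperz at 53.1%. The remaining genes had 47.4% to 49.1%, near the median of 49.1% over tested genes, where the value of Catsperg1 is that of an intron-retaining transcript. To show the contrast, 120 coding bases are given of Catsperz-201 (bases 91 to 210, chromosome 19, minus strand) and of Catsperb-201 (bases 22 to 141, chromosome 12, plus strand), with every G and C in capitals.
Catsperz: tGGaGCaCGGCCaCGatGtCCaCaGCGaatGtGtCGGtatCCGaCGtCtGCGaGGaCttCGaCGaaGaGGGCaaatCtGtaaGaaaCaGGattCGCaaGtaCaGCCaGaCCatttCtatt
Catsperb: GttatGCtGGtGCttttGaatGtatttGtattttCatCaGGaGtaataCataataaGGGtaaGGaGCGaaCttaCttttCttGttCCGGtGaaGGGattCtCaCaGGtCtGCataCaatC
Each window was picked as the one nearest in GC content to its whole coding sequence, so that closeness is not a result. The Catsperz window holds 62 G or C bases (51.7%), against 52.1% in its whole coding sequence. The Catsperb window holds 46 (38.3%), against 38.1% in its whole coding sequence.

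**Figure D3:**
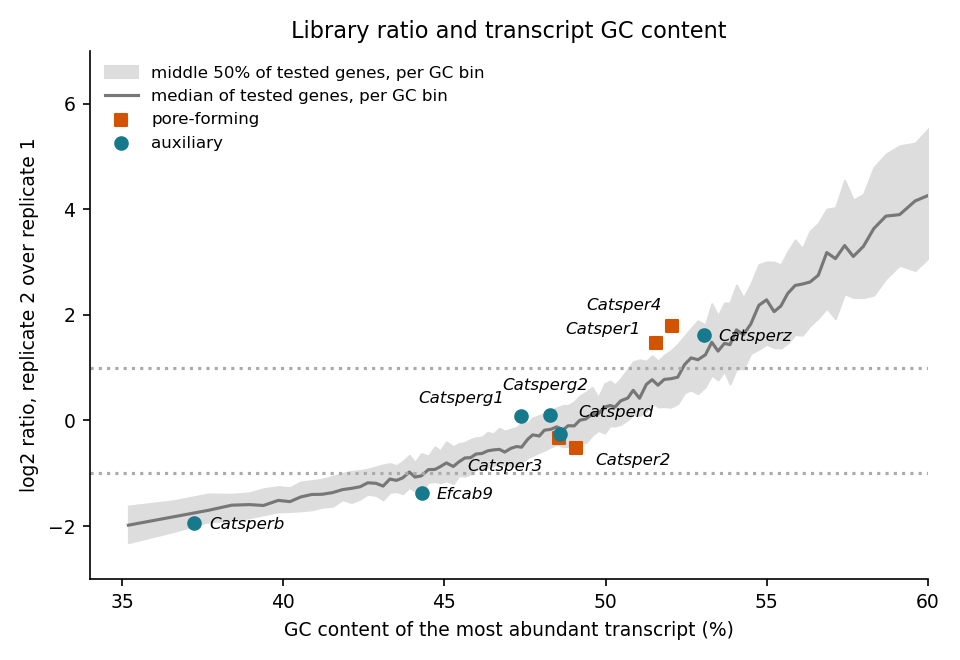
Log2 ratio of replicate 2 over replicate 1 on TMM-scaled counts against GC content (%) of each gene's most abundant transcript, for the 4 pore-forming (squares) and 6 auxiliary (circles) genes. The grey line and band are the median and middle 50% of tested genes in 100 bins of GC content and the dotted lines mark 2-fold; bins of higher GC content than the axis shows are not drawn. Catsperb and Catsperz lie inside the band, Catsper1, Catsper4 and Catsperg1 lie above it, and Catsper2 and Efcab9 lie just below it. Catsperg1 is placed at the GC content of Catsperg1-204, a transcript listed at 0 TPM in replicate 2.

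When the median ratio of tested genes of similar GC content was subtracted, 0 of the 10 genes remained past 2-fold, against 22.1% of the tested genes with a known GC content. Catsperb came to -0.11 on the log2 scale, Efcab9 to -0.32 and Catsperz to 0.38. Catsper1 and Catsper4 kept the highest values, 0.81 and 0.99, the second of which is just under 2-fold. Catsperg1 came to 0.60, and Catsper2, the lowest, to -0.42. The value of Catsperg1 rests on the GC content of Catsperg1-204, an intron-retaining transcript listed at 0 TPM in replicate 2. The SD of the log2 ratio over the 10 genes was 0.50 after the correction and 1.25 before it. Over tested genes it was 1.12 after the correction and 2.11 before it. Tested genes include those averaging only 10 counts, while each CatSper gene had at least 842 counts in each library. The shares and SDs of the CatSper genes and of all tested genes are thus not at like depth. GC content moves with the library ratio, and what makes it do so was not tested.

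**Figure D4:**
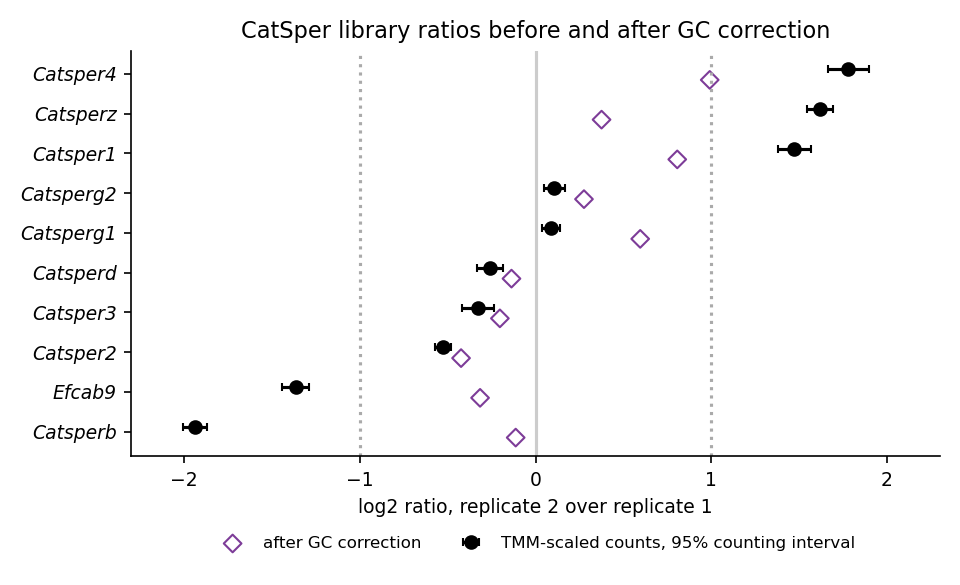
Log2 ratio of replicate 2 over replicate 1 for each CatSper gene on TMM-scaled counts (black, with exact 95% counting intervals) and after GC correction, that is, less the median ratio of genes alike in GC content (open diamonds). Dotted lines mark 2-fold. The 5 black points outside them all have a diamond inside.

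At the transcript level, 5 of the 10 genes had a single transcript in the deposited tables, namely Catsper1, Catsperb, Catsperd, Catsperg2 and Catsperz. Of the other 5, Catsper2, Catsper3, Catsper4 and Efcab9 shared their leading transcript between the libraries and Catsperg1 did not. Among all detected genes with more than 1 transcript, 33.8% had a different one. Catsper4-201 made up 99.77% of its gene's TPM in replicate 2 and 99.01% in replicate 1, and Efcab9-201 made up 99.58% in replicate 2 and 99.87% in replicate 1. Catsper2-201 made up 95.7% in replicate 2 and 93.78% in replicate 1. Most of the rest was Catsper2-204, annotated for nonsense-mediated decay, at 4.14% in replicate 2 and 5.99% in replicate 1.

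Catsper3 had a second coding transcript, Catsper3-202, whose coding sequence lacks a segment of 39 bases and keeps the reading frame. The transcripts are 1330 bases long for Catsper3-201 and 1311 for Catsper3-202, so they also differ outside the coding sequence. The share of Catsper3-202 was 14.36% in replicate 2 (220.7 estimated counts) and 1.08% in replicate 1 (26.6 estimated counts). Coding bases 235 to 309 of Catsper3-201 (chromosome 13, plus strand) are shown, with the 39 bases that Catsper3-202 lacks in capitals.
Catsper3-201: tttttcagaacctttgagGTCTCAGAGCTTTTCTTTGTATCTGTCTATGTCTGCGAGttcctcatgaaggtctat
Catsper3-201 had 84.92 TPM in replicate 2 and 99.39 TPM in replicate 1, and Catsper3-202 had 14.24 TPM in replicate 2 and 1.09 TPM in replicate 1. The shares thus differed between the libraries while the gene's level was nearly equal.

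Catsperg1 had 14 transcripts, and near-equal TPM of the gene in the libraries covered unlike mixtures of them. Its CPM was less alike, 272 in replicate 2 and 211 in replicate 1. TPM divides counts by an effective length that depends on the estimated mixture. That length was 2996 bases in replicate 2 and 2229 in replicate 1, so the near-equal TPM rests on these estimates. Transcripts annotated with a retained intron made up 47.35% of its TPM in replicate 2 (64.96 TPM) and 74.01% in replicate 1 (103.3 TPM). The 3 protein-coding transcripts made up 35.85% in replicate 2 (49.19 TPM) and 15.02% in replicate 1 (20.97 TPM). The 2 transcripts annotated for nonsense-mediated decay held 16.72% in replicate 2 and 10.49% in replicate 1. Catsperg1-209 led in replicate 2 with 25.08% and had 10.49% in replicate 1. Catsperg1-204 was listed at 0 in replicate 2 and led in replicate 1 with 38.71% (1841 estimated counts). Both carry a retained intron. Among the coding transcripts, Catsperg1-212 had 20.74% in replicate 2 and 3.53% in replicate 1, and Catsperg1-201 had 13.75% in replicate 2 and 9.37% in replicate 1. Catsperg1-208, with a retained intron, had 16.24% in replicate 2 and 4.44% in replicate 1. Catsperg1-207, annotated for nonsense-mediated decay, had 10.69% in replicate 2 and 7.5% in replicate 1. These splits are estimates from reads shared by overlapping transcripts and have no replicate beyond the 2 libraries.

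**Figure D5:**
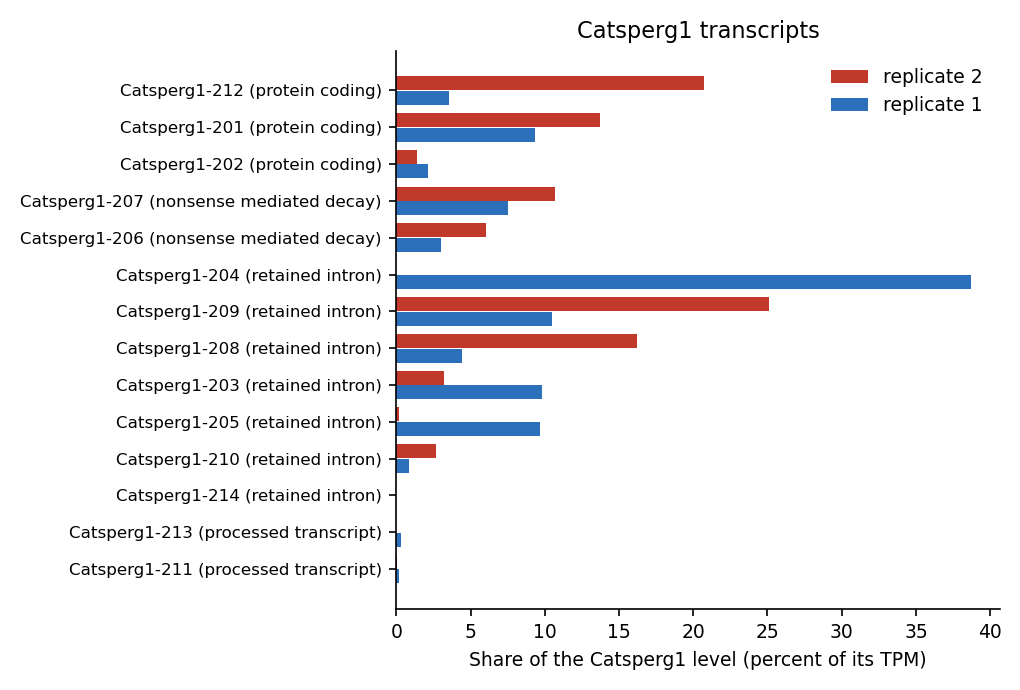
Share of the Catsperg1 level (percent of its TPM) in each of its 14 transcripts, grouped by annotated class, in replicate 2 (red) and replicate 1 (blue). Catsperg1-204 holds 0% in replicate 2 and 38.71% in replicate 1, and the coding transcript Catsperg1-212 holds 20.74% in replicate 2 and 3.53% in replicate 1.

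The class of transcript counted changed the comparison of the gamma paralogs. At the gene level the log2 ratio of Catsperg1 over Catsperg2 was 0.81 in replicate 2 and 1.25 in replicate 1. With protein-coding transcripts alone it was -0.67 in replicate 2 and -1.49 in replicate 1, so Catsperg2 was then the higher in both libraries. Catsperg2 had only 1 transcript in the deposited tables, against 9 in M21, so its other annotated forms had no entry of their own there. For the medians of the groups, pore-forming over auxiliary, coding transcripts alone gave a log2 ratio of 0.48 in replicate 2 and -0.73 in replicate 1.

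Of 6 further genes of the channel complex, 5 were found and all 5 were detected. By 2-fold or more, 4 of the 5 were lower in replicate 2 and 1 was higher, against 23.9% and 32.5% of all tested genes. The median GC content of the 5 was 40.4%, against 49.1% over tested genes. C2cd6, needed in the mouse to bring the channel to the flagellum, had 237.7 TPM in replicate 2 and 505.04 TPM in replicate 1. Slco6c1, a transporter found in the purified complex, had 110.1 TPM in replicate 2 and 301.02 TPM in replicate 1. Both were past 2-fold lower in replicate 2, with a log2 ratio on TMM-scaled counts of -1.45 for C2cd6 and -1.81 for Slco6c1. The epsilon subunit gene Catspere2 was also lower, at 31.82 TPM in replicate 2 and 81.14 TPM in replicate 1 (log2 ratio -1.65). Catspere1, annotated in M21 as an unprocessed pseudogene, had 28.2 TPM in replicate 2 and 74.33 TPM in replicate 1 (log2 ratio -1.71). Reads shared by these paralogs were divided, with a posterior SD of 4.78 reads in replicate 2 and 8.08 in replicate 1. Of the Catspere2 level, 70.95% in replicate 2 and 69.13% in replicate 1 lay in Catspere2-203, a transcript annotated for nonsense-mediated decay. Catspere2-202, a processed transcript, held 20.45% in replicate 2 and 20.82% in replicate 1, and the coding Catspere2-201 held 8.6% in replicate 2 and 10.05% in replicate 1. Slco6c1 had 2 coding transcripts whose order turned, with Slco6c1-202 at 55.36% in replicate 2 and 35.3% in replicate 1 and Slco6c1-201 making up the rest. C2cd6-202, a processed transcript, held 10% in replicate 2 and 6.36% in replicate 1, beside the coding C2cd6-201. Tmem262, a small membrane subunit, was higher in replicate 2, with 60.11 TPM (286 counts) against 10.88 TPM (81 counts) in replicate 1 (log2 ratio 2.16, interval 1.81 to 2.54). Its 2 coding transcripts kept their order, with Tmem262-201 at 81.93% in replicate 2 and 86.06% in replicate 1 and Tmem262-202 making up the rest. After GC correction the log2 ratio of Tmem262 was 1.59 and the other 4 lay between -0.26 and 0.01. Thus 1 of the 5 was then past 2-fold, against 22.1% of tested genes with a known GC content.

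Among 20 genes of sperm calcium signalling and capacitation, 18 were detected, and of the 19 tested 4 were past 2-fold higher in replicate 2 and 4 were past 2-fold lower, against 32.5% and 23.9% of all tested genes. These counts are near or below those shares and set the list apart in neither direction. After GC correction 0 of the 19 were past 2-fold, against 22.1% of tested genes with a known GC content. The corrected values lay between -0.84 for Prkaca, whose sign turned, and 0.90 for Hvcn1. Before the correction the median log2 ratio of the list was -0.50, against 0.01 over tested genes. The higher genes included Calm3, with 633.2 TPM in replicate 2 and 95.79 TPM in replicate 1, and the protein kinase A catalytic subunit Prkaca, with 74.21 TPM in replicate 2 and 21.96 TPM in replicate 1. The lipase Abhd2, which responds to progesterone in human sperm, had 41.93 TPM in replicate 2 and 15.75 TPM in replicate 1. The proton channel Hvcn1 rested on 28 counts in replicate 2 and 5 in replicate 1, under 1 TPM in both. Of the lower genes, Calm2 had 927.4 TPM in replicate 2 and 1794 TPM in replicate 1. The sperm sodium-proton exchanger Slc9c1 had 73.57 TPM in replicate 2 and 204.2 TPM in replicate 1, and the egg-activating phospholipase Plcz1 had 201.6 TPM in replicate 2 and 489.9 TPM in replicate 1. Calm3 and Calm2, which encode the same protein, thus went in opposite directions, with log2 ratios of 3.59 for Calm3 and -1.26 for Calm2, and of 0.42 and -0.08 after GC correction. With Calm2, the highest mean levels of the list were those of Akap4, Pgk2 and Cabyr. The fibrous sheath anchor Akap4 had 1283 TPM in replicate 2 and 2072 TPM in replicate 1, and the glycolytic enzyme Pgk2 had 1045 TPM in replicate 2 and 1294 TPM in replicate 1. The calcium-binding sheath protein Cabyr had 434.1 TPM in replicate 2 and 1011 TPM in replicate 1. All of these 4 genes lay above every CatSper gene in both libraries, except that Catsperz was above Cabyr in replicate 2.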

How the data were processed

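PolyA RNA of 1 testis was sequenced in 2 technical libraries. For each, the authors deposited a gene and a transcript table, made per the deposited notes on mm10 with annotation release M4. Which aligner and quantification program were used, and whether counting used strand, is not given in the sources used here. Expected counts, deposited by the authors, divide shared reads and need not be whole. TPM and FPKM, also deposited by the authors, are scaled for length and depth. The isoform percent deposited by the authors is a transcript's share of its gene's TPM.

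Names, positions and transcript sequences came from GENCODE M21 (GRCm38, mm10), matched by identifier without version for 42462 of 43346 genes. Rows with numeric identifiers (26248) and spike-ins (97) were left out. Expected counts were rounded, scaled by TMM (edgeR 4.0.16; factors 1.10 in replicate 2 and 0.907 in replicate 1) and compared as log2 ratios with 0.5 added. Ratios carry exact 95% counting intervals and no p-value, since each library stands alone. GC content was that of a gene's most abundant transcript, known for 99.0% of tested genes, and its expected ratio came from 100 bins. Pairs of genes were compared within a library on counts divided by effective length. The calculation of the ratio was first run on simulated counts with few genes changed and no GC trend. The real libraries differ in both respects, so that run checks the calculation only. Members and lists were chosen with earlier results of these data known. All 10 members, the other complex genes, and of the calcium signalling list the 4 of highest mean TPM and those past 2-fold were named, as were transcripts of at least 10% in either library. Of the genes this rule picked, 1 of the calcium signalling list is not reported here. No gene was named for a similar pattern, since 2 libraries of 1 tissue give none. Alternatives covered DESeq2 1.42.0 size factors, other scalings, units, fold limits and filters. Other software was scipy 1.17.1, pandas 2.3.3 and numpy 2.4.6 in Python 3.11.15, and R 4.3.3.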

Additional observations from a re-analysis of the deposited data

How the results depend on the processing

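No paired analysis was possible because the series has 1 group, whose libraries are technical replicates of 1 animal, and no result comes from a test. The median level of the 10 genes was 97.5 TPM, and it was 110.6 to 120.03 TPM when a library was left out, 65.5 on the FPKM scale and 86.8 TPM with protein-coding transcripts alone, an alternative chosen after seeing the data. The log2 ratio of the group medians, -0.53, was 0.0276 without replicate 1 and -1.09 without replicate 2. The other alternatives run all used both libraries and gave negative values, the nearest to 0 being -0.12 with protein-coding transcripts alone. With these transcripts in replicate 2 alone it was 0.48, so the sign is not settled. Leaving out either library removes the library ratio. Of the 5 genes past 2-fold, 0 remained after GC correction and 0 of the 10 passed a limit of 4-fold, against 22.1% and 23.5% of tested genes. That count was 5 under the 4 other scalings. The median percentile, 91.2, was 91.7 to 93.5 with a library left out and 86.2 among genes at 1 TPM or more. All 10 genes were detected at 10 TPM too, as were 28.4% of protein-coding genes. Catsperg1 fell to a mean of 35.1 TPM with coding transcripts alone. The causes were not tested.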

Other observations

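Catsperz lies beside Kcnk4 on chromosome 19, and 41.4% of the 50-base stretches of its transcript also occur in M21 transcripts of Kcnk4. The deposited posterior SD of the Catsperz count was 0 in both libraries. For Catsperb, 14.6% of such stretches also occur in Gm18795, and its posterior SD was 0 as well. For Catsper1, Catsper2, Catsper3, Catsper4, Catsperd and Efcab9 the share was 0%. M21 lists 9 transcripts of Catsperz, 5 of Catsperb and 3 of Catsperd, against 1 each in the deposited tables.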
